A study of Mus musculus with 10 samples.

Results

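The nuclear genes that encode respiratory complexes III and IV, ATP synthase and somatic cytochrome c were described here in mouse gastrocnemius muscle. They were taken by symbol: every gene whose symbol begins with Uqcr, with Atp5, or with Cox followed by a single digit from 4 to 8 and a letter, and in addition Cyc1 and Cycs, without pseudogene symbols and with a summed estimated count of at least 50 over the 10 libraries. This gave 44 of the 21956 genes in the deposited table, of which 9 belong to complex III, 16 to complex IV, 18 to ATP synthase and 1 is cytochrome c. Left out were Cox5b-ps, Cox7b2 with a summed count of 1, Cox8c at 0 and a second identifier of Atp5po at 0.

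The study sequenced poly(A) RNA of gastrocnemius, a calf muscle of mixed and mostly fast fibres, from wild-type mice in 2 groups of 5 samples, HLI and Sham. The labels do not spell out HLI, which is taken here as hindlimb ischaemia with a sham-operated control. No time after the operation, strain, age or sex was used here, and both groups are wild-type. Whether the 5 samples of a group are separate animals is not stated, so a p-value here weighs the spread among samples that may be technical repeats.

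Complex III passes electrons from ubiquinol to cytochrome c, complex IV passes them on to oxygen, and both pump protons across the inner mitochondrial membrane. ATP synthase uses that gradient: protons turn a ring of c subunits, and the rotation drives ATP formation in the catalytic head. Complexes III and IV and ATP synthase each combine nuclear subunits, the ones described here, with a few subunits made from mitochondrial DNA. In mammals, complex IV has subunits with a contractile-muscle isoform and a ubiquitous isoform (Cox6a2 and Cox6a1, Cox7a1 and Cox7a2, Cox8b and Cox8a in mouse), and Cox4i2 is an alternative to Cox4i1 known from lung and from cells kept at low oxygen.

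Library totals ran from 16556385 to 22136299 estimated counts. Markers of fast fibres made up 105656 to 173517 TPM (a normalised level per gene length) in HLI libraries and 159890 to 208316 TPM in Sham libraries, as the muscle label calls for. Ucp1, the defining gene of brown fat, was at 0 in every library. The other brown-fat marker, Cidea, was at 0.61 to 3.04 TPM in HLI and 1.62 to 2.70 TPM in Sham libraries. General fat-cell markers were present: 7 of them summed to 761 to 1880 TPM in HLI libraries, with HLI 4 the lowest, and to 1207 to 1590 TPM in Sham libraries. In CPM, read counts relative to the scaled library total, the 15 fast-fibre markers summed to 123149, 148249, 69332, 180715 and 122592 in HLI 1 to 5, against 158711, 194180, 152994, 190255 and 209420 in Sham 1 to 5. HLI 3 was the lowest. The 14 macrophage markers summed to 4021, 1714, 3547, 952 and 2259 CPM in HLI 1 to 5, against 1857, 916, 1680, 1132 and 734 CPM in Sham 1 to 5, with HLI 1 and HLI 3 the highest. Fibroblast markers ranged from 5318 to 19622 CPM in HLI libraries and from 7871 to 10701 CPM in Sham libraries, again with HLI 3 the highest. In 1 library of each group the embryonic myosin of new fibres, Myh3, went against the rest of its group: it was 7.71 CPM in HLI 1, against 80.0 to 442 CPM in the other HLI libraries, and 164 CPM in the library labelled Sham 1, against 3.97 to 5.63 CPM in the other Sham libraries. All libraries kept their labels, and the fits are also given without this pair. The part of the marker levels in the values of the respiratory genes was not tested. In bulk RNA, fewer fibres and less of a transcript per fibre cannot be told apart.

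Promoters of 3 complex IV genes are printed because the muscle isoform Cox8b had a fitted value below 0 in HLI muscle and the ubiquitous isoforms Cox8a and Cox6a1 had values above 0, and because they carry different motifs. Each runs 5′ to 3′ over 300 bases, 250 before and 50 after the RefSeq start, on GRCm38.p6: Cox8b is chr7:140900397-140900696, Cox8a is chr19:7217567-7217866 and Cox6a1 is chr5:115348909-115349208, all on the minus strand. Capitals mark every match, on either strand, to the 6 motifs given below, and no 2 matches overlap.
Cox8b: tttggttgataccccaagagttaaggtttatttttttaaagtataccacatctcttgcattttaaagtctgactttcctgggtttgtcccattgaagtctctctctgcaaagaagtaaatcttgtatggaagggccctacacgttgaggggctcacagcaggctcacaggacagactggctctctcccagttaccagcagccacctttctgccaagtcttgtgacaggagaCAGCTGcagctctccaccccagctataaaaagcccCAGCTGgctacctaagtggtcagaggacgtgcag
Cox8a: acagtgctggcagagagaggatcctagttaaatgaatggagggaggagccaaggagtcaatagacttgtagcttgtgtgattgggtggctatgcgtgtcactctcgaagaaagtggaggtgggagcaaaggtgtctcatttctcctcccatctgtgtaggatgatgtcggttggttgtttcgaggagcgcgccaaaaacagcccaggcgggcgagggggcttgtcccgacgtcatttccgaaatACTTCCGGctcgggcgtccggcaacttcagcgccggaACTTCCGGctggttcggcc
Cox6a1: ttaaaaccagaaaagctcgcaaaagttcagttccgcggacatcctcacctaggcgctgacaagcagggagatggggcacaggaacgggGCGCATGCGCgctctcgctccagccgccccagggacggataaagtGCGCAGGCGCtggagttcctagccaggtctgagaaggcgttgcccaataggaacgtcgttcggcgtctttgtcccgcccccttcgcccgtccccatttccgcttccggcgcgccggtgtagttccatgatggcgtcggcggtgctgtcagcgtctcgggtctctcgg
The capitals in Cox8b are 2 matches to CAGCTG, the E-box that myogenic factors such as MyoD bind. In Cox8a they are 2 matches to CCGGAAGT, the site of GABP (also called NRF2), and in Cox6a1 they are 2 matches to GCGCA, any base and GCGC, the site of nuclear respiratory factor NRF1. Both NRF1 and GABP are known regulators of nuclear respiratory genes.

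RefSeq promoters were found for 32 of the 44 genes, and 12 had no entry (among them Cox6a2, Cox4i1, Cox4i2 and Atp5if1). The NRF1 letters were in 7 of these 32 windows, 21.9%, against 4.78% of all 27025 promoters of the same length: Atp5mc2, Atp5mc3, Atp5me, Atp5pd, Atp5po, Uqcrc1 and Cox6a1. Of these only Cox6a1 had a fitted log2 fold change above 0 (0.20), and the others ran from -0.59 to -0.12. The GABP letters were in 4, 12.5%, against 4.0% of all promoters: Atp5pd, Uqcr11, Uqcrh and Cox8a. Only Cox8a among them had a fitted value above 0 (0.24), and the others ran from -0.34 to -0.21. The E-box CAGCTG was in 2 windows, 6.25%, against 16.1% of all: Cox8b and Atp5f1b, which is not a muscle isoform. The windows of the muscle isoform Cox7a1 and the ubiquitous Cox7a2 held 0 matches to the 6 motifs. Their fitted log2 fold changes were -0.50 and -0.17, so the 3 printed promoters do not stand for all isoforms. Nor do the printed promoters stand for the other genes with the NRF1 or GABP letters. A single window each held TCAAGGTCA, the oestrogen-related receptor (ERR) site, AAGATGGCG, the YY1 site, and CTA, any 4 bases and TAG, the MEF2 site, or 3.12%, against 0.407%, 1.49% and 3.7% of all promoters. A match describes letters in a window and is not evidence of binding, and a window without one says nothing about the factor.

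Most of these genes had lower fitted values in HLI than in Sham muscle, by small amounts that did not pass the test. Of 44 genes, 43 passed the filter on low counts, and Cox6b2 did not. By edgeR's quasi-likelihood test, 0 of the 43 had an adjusted p under 0.05, and so did 0.0% of all 13404 genes tested; the lowest adjusted p was 0.29 over all genes and 0.29 among the 43. The fitted log2 fold change was below 0 in 39 of 43 genes, and above it in 4, against 46.2% below and 53.8% above of all genes tested, and their median was -0.25, against 0.03 over all genes. Unscaled TPM put the median over all genes at 0.19, and there 39 lay below that median but 31 below 0. Uqcrc2, Cycs, Cox7a2, Cox7a2l, Cox7b, Atp5f1d, Atp5mc3 and Atp5pb had the opposite sign there, between 0.0043 and 0.08. At an unadjusted p under 0.05, 3 of the 43 were lower in HLI (Atp5me, Cox6a2 and Cox5a) and 2 were higher (Cox8a and Atp5if1), against 6.15% lower and 10.7% higher of all genes, or 2262 genes together. Those shares lie near the background for lower values and below it for higher ones. DESeq2, run as an alternative, called 45 of 17391 genes, 38 higher (0.219%) and 7 lower (0.0403%), and 0 of the 44 respiratory genes, among which Atp5me had the lowest adjusted p, 0.164. In no member did the 5 HLI libraries all lie below or all lie above the 5 Sham libraries, which held below for 0.873% and above for 0.776% of all genes.

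**Figure D1:**
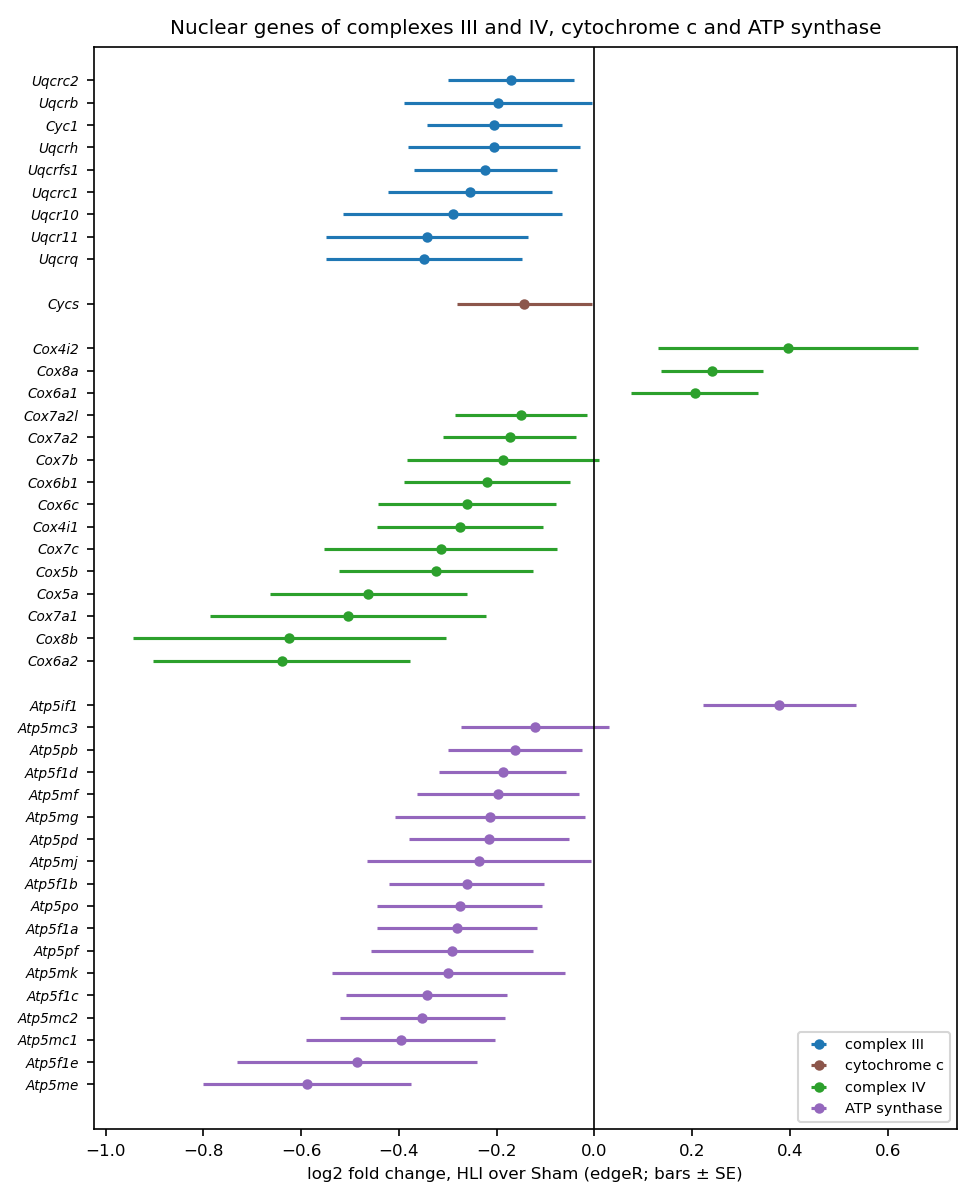
Fitted log2 fold change, HLI over Sham, of the 43 genes tested, by complex; each point is a gene, bars are 1 standard error of the edgeR fit, and the vertical line marks 0. Points left of 0 are lower in HLI: 39 genes lie there on this CPM scale (31 on unscaled TPM), and Cox6a1, Cox8a, Cox4i2 and Atp5if1 lie to the right, with no gene past the adjusted threshold.

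The 3 complexes were high and low in the same libraries. The median over the genes of complex III, each gene's log2 CPM centred on its mean over the libraries, was -0.32, 0.09, -0.53, 0.19 and -0.06 in HLI 1 to 5, against 0.05, 0.15, -0.20, 0.46 and 0.30 in Sham 1 to 5. For complex IV the same measure was -0.34, 0.17, -0.52, 0.11 and -0.02 in HLI 1 to 5, against 0.06, 0.04, -0.28, 0.54 and 0.29 in Sham 1 to 5. ATP synthase gave -0.30, 0.12, -0.53, 0.09 and -0.06 in HLI 1 to 5, against 0.10, 0.09, -0.28, 0.42 and 0.29 in Sham 1 to 5. On this CPM scale, HLI 3 and HLI 1 were the lowest libraries in all 3, and Sham 4 and Sham 5 the highest. HLI 2, HLI 4 and HLI 5 lay within the Sham range, and Sham 3 was the lowest Sham library. The scaling factor of the library total was largest in HLI 3 (1.225) and smallest in Sham 4 (0.9099). As a share of unscaled TPM, Sham 3 was the lowest library for complex III, at 0.369%, against 0.380% in HLI 1 and 0.381% in HLI 3. Sham 3 was also the lowest for ATP synthase, at 1.147%, against 1.152% in HLI 3. For complex IV HLI 3 was the lowest, at 0.604%, against 0.611% in Sham 3.

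Counted gene by gene over all 44 in CPM, HLI 3 was the lowest of the 10 libraries for 34 genes (26.5% of all genes tested), Sham 3 for 6 (7.94%) and HLI 1 for 4 (13.0%). Sham 4 was the highest for 30 genes (9.97% of all genes). HLI 3 lay below every Sham library for 37 genes and HLI 1 for 34, against 34.4% and 27.7% of all genes tested. HLI 5 did so for 5 genes (20.8% of all), HLI 2 for 2 (17.7%) and HLI 4 for 0 (19.6%). Within the Sham range lay HLI 4 for 41 genes (62.8%), HLI 2 for 39 (62.0%), HLI 5 for 36 (55.1%), HLI 1 for 7 (46.5%) and HLI 3 for 4 (31.1%). HLI 3 and HLI 1 are also the libraries with the highest macrophage sums, and HLI 3 has the lowest fast-fibre sum.

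**Figure D2:**
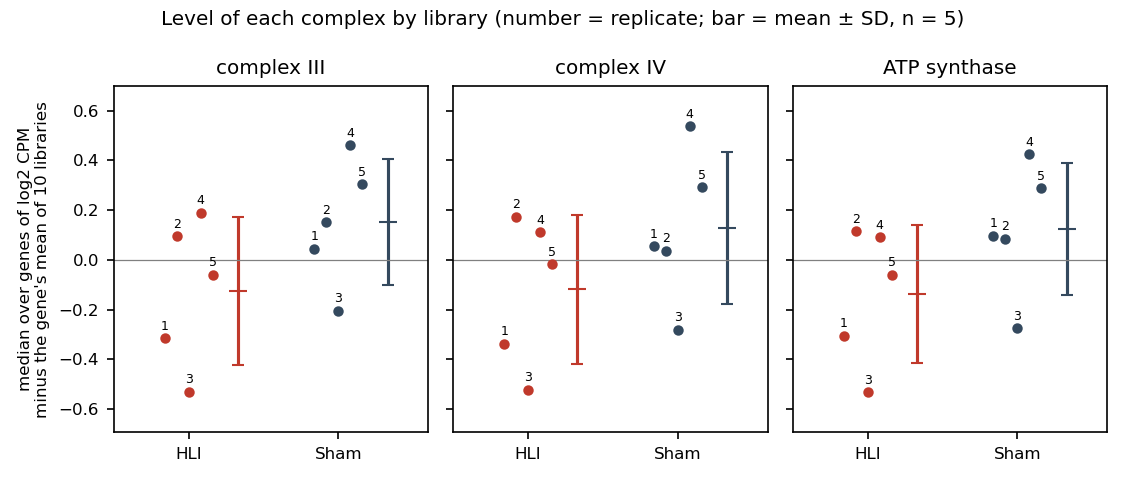
Median centred log2 CPM of the genes of complex III, complex IV and ATP synthase in each library, with HLI libraries left of Sham libraries in each panel, a number at each point for its replicate, and a bar for the group mean ± SD (n = 5 each). On this CPM scale HLI 3, between -0.53 and -0.52, is the lowest point in every panel and Sham 4, between 0.42 and 0.54, the highest, and the groups overlap.

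As a share of all TPM, the 44 genes made up 2.24, 2.81, 2.16, 2.54 and 2.58% in HLI 1 to 5, against 2.68, 2.58, 2.15, 2.96 and 2.81% in Sham 1 to 5. The means were 2.47 ± 0.27% in HLI and 2.64 ± 0.30% in Sham muscle (SD, n = 5 each), and the lowest values of the groups, HLI 3 and Sham 3, were nearly equal. Without HLI 1 and Sham 1 they were 2.52 ± 0.27% in HLI and 2.63 ± 0.35% in Sham muscle (SD, n = 4 each). ATP synthase genes took 1.30 ± 0.13% in HLI and 1.38 ± 0.14% in Sham muscle, complex IV genes 0.713 ± 0.096% in HLI and 0.792 ± 0.126% in Sham muscle, and complex III genes 0.428 ± 0.045% in HLI and 0.443 ± 0.045% in Sham muscle. Each difference was smaller than the SD of its groups.

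Within complex III, all 9 genes had a fitted log2 fold change below 0, from -0.35 to -0.17, with a median of -0.22 and adjusted p-values of 0.347 to 0.556 by edgeR. On unscaled TPM 8 of the 9 were below 0 and the median was -0.04, against 0.19 over all genes. The core proteins Uqcrc1 and Uqcrc2, which face the matrix, were at -0.25 and -0.17, and Cyc1, the cytochrome c1 haem subunit that hands electrons to cytochrome c, was at -0.20 on the same scale. Uqcrfs1, the Rieske iron-sulphur protein, had 313, 383, 262, 434 and 374 CPM in HLI 1 to 5, against 381, 431, 359, 447 and 443 CPM in Sham 1 to 5. HLI 3 and HLI 1 were its lowest libraries, and the other HLI libraries lay within the Sham range. Its fitted log2 fold change was -0.22 (SE 0.15, edgeR adjusted p = 0.393).

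The small subunits spanned the same range. Uqcrq, a small subunit next to cytochrome b, had 177, 254, 128, 232 and 210.0 CPM in HLI 1 to 5, against 232, 248, 181, 318 and 295 CPM in Sham 1 to 5 (log2 fold change -0.35, SE 0.20, edgeR adjusted p = 0.347). Uqcr11 had 48.6, 75.0, 39.8, 69.8 and 62.2 CPM in HLI 1 to 5, against 66.9, 69.7, 50.7, 96.2 and 91.1 CPM in Sham 1 to 5. It is the smallest subunit and was also the lowest per length in complex III, at 254 TPM in HLI and 282 TPM in Sham muscle, and its log2 fold change was -0.34 (SE 0.21, edgeR adjusted p = 0.365). Uqcrh, the hinge protein by which cytochrome c1 meets cytochrome c, was the highest per length, at 662 ± 92.4 TPM in HLI and 667 ± 104 TPM in Sham muscle (SD, n = 5 each). In CPM it had 147, 236, 154, 218 and 186 in HLI 1 to 5, against 215, 188, 163, 273 and 245 in Sham 1 to 5, with HLI 2 above 3 of the Sham libraries. Uqcrb, which binds near the ubiquinone site, had the largest p of the complex: 122, 173, 113, 207 and 157 CPM in HLI 1 to 5, against 167, 147, 140.4, 236 and 194 CPM in Sham 1 to 5 (log2 fold change -0.20, SE 0.19, edgeR adjusted p = 0.556). Uqcr10 was at -0.29. Cycs, the mobile electron carrier cytochrome c, averaged 249 TPM in HLI and 242 TPM in Sham muscle, and its log2 fold change on CPM was -0.14 (SE 0.14, edgeR adjusted p = 0.548). Its estimated counts were fractional in all 10 libraries, so reads may have been divided with near-identical loci and its level is uncertain, as is that of Uqcrc2, fractional in 7.

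The median of complex III was -0.14 without HLI 3 and -0.34 without HLI 4. Without HLI 1 and Sham 1 it was -0.21, all 9 genes were still below 0, and Uqcrq was at -0.34, Uqcr11 at -0.32, Uqcrfs1 at -0.21, Uqcrb at -0.14, Uqcrh at -0.13 and Cycs at -0.06. Single libraries set much of the size in the small values: Uqcrb was at -0.09 without Sham 4, -0.12 without HLI 1, -0.10 without HLI 3 and -0.34 without HLI 4. Without HLI 3, Uqcrfs1 was at -0.13 and Uqcrq at -0.22, and Uqcrh was at -0.13 without Sham 4 and also without HLI 1.

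In complex IV, 12 of the 15 genes tested had a fitted log2 fold change below 0, with a median of -0.26 and a range from -0.64 to 0.40. On unscaled TPM 9 of the 15 were below 0 and the median was -0.05, against 0.19 over all genes. The 3 lowest values belonged to the 3 muscle isoforms, Cox6a2, Cox8b and Cox7a1, and the 3 above 0 to Cox6a1, Cox8a and Cox4i2. Subunits without a muscle isoform lay between them. Cox5a, a subunit on the matrix side, had 247, 287, 146, 321 and 248 CPM in HLI 1 to 5, against 299.9, 334, 271, 423 and 394 CPM in Sham 1 to 5. HLI 1, HLI 3 and HLI 5 were below every Sham library. The log2 fold change of Cox5a was -0.46 (SE 0.20, unadjusted p = 0.0406, edgeR adjusted p = 0.292). Cox5b, which holds the zinc ion of the enzyme, Cox6c and Cox7c were at -0.32, -0.26 and -0.31, with adjusted p-values of 0.370, 0.418 and 0.449.

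Cox6b1, on the side where cytochrome c docks, had 165, 231, 139.5, 213 and 195 CPM in HLI 1 to 5, against 215, 215, 159, 275 and 234 CPM in Sham 1 to 5. In CPM, HLI 3 was the lowest library and Sham 4 the highest, with HLI 2 above 3 Sham libraries. In TPM Sham 3 was the lowest, at 461, against 529 in HLI 3. The log2 fold change of Cox6b1 was -0.22 (SE 0.17, edgeR adjusted p = 0.458). It was -0.13 without HLI 3 and -0.14 without Sham 4. Its testis isoform Cox6b2 was at the edge of detection, with 0.055, 0.346, 0.292, 0.234 and 0.598 CPM in HLI 1 to 5, against 0.41, 0.242, 0.322, 0.286 and 0.066 CPM in Sham 1 to 5, and was not tested. Cox7b had 186, 313, 179, 270.0 and 249.9 CPM in HLI 1 to 5, against 263, 236, 202, 372 and 291 CPM in Sham 1 to 5, a log2 fold change of -0.19 (SE 0.20) and the largest p of the complex, 0.581 after adjustment by edgeR. It was at -0.07 without Sham 4, -0.10 without HLI 3, -0.11 without HLI 1, -0.29 without Sham 3 and -0.30 without HLI 2. Cox7a2l, which joins complexes III and IV in supercomplexes, had 105, 140.4, 123, 106 and 128 CPM in HLI 1 to 5, against 139.9, 126, 104, 160.1 and 139 CPM in Sham 1 to 5. All its HLI libraries lay within the Sham range, and its log2 fold change was -0.15 (SE 0.13, edgeR adjusted p = 0.519), -0.09 without Sham 4 and -0.24 without Sham 3. Without HLI 1 and Sham 1, Cox5a was at -0.50, Cox6b1 at -0.18, Cox7b at -0.12 and Cox7a2l at -0.09.

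Cox6a2, the isoform of heart and skeletal muscle, was the highest complex IV gene per length in Sham muscle, at 912 ± 239 TPM in HLI and 1257 ± 235 TPM in Sham muscle (SD, n = 5 each). In CPM it had 311, 442, 159.5, 425 and 305 in HLI 1 to 5, against 419, 507, 355, 658 and 619 in Sham 1 to 5. HLI 1, HLI 3 and HLI 5 were below every Sham library, and HLI 2 and HLI 4 lay within the Sham range. The log2 fold change was -0.64 (SE 0.26, unadjusted p = 0.0315, edgeR adjusted p = 0.291), the lowest of all 43 genes, and it was -0.47 without HLI 3 and -0.68 without HLI 1 and Sham 1. Cox6a1, the ubiquitous isoform, had 32.3, 29.0, 34.1, 23.2 and 27.4 CPM in HLI 1 to 5, against 30.1, 24.4, 21.9, 22.8 and 27.6 CPM in Sham 1 to 5, with HLI 3 the highest library and HLI 1 next. Its log2 fold change was 0.20 (SE 0.13, edgeR adjusted p = 0.379), and 0.24 without HLI 1 and Sham 1.

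Cox8b, the muscle isoform whose promoter is shown above with the E-boxes, had 38.4, 60.8, 20.8, 66.7 and 45.5 CPM in HLI 1 to 5, against 48.4, 69.6, 42.2, 104 and 93.8 CPM in Sham 1 to 5. HLI 1 and HLI 3 were below every Sham library, and the other HLI libraries lay within the Sham range. Its log2 fold change was -0.62 (SE 0.32, edgeR adjusted p = 0.318), -0.44 without HLI 3 and -0.68 without HLI 1 and Sham 1. Cox8a, the ubiquitous isoform with the GABP letters, had 57.4, 56.9, 57.3, 43.7 and 48.5 CPM in HLI 1 to 5, against 48.9, 42.8, 41.8, 45.9 and 43.9 CPM in Sham 1 to 5. HLI 1, HLI 2 and HLI 3 were above every Sham library, and HLI 4 and HLI 5 lay within the Sham range. The log2 fold change of Cox8a was 0.24 (SE 0.10, unadjusted p = 0.0391, edgeR adjusted p = 0.292), also without HLI 1 and Sham 1.

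Cox7a1, the muscle isoform of this subunit, had 51.6, 93.3, 37.8, 80.1 and 75.7 CPM in HLI 1 to 5, against 77.2, 92.2, 53.3, 141 and 116 CPM in Sham 1 to 5. Only HLI 1 and HLI 3 were below every Sham library, and the log2 fold change was -0.50 (SE 0.28, edgeR adjusted p = 0.340). Cox7a2, its ubiquitous counterpart, had 80.2, 112, 83.1, 108 and 108 CPM in HLI 1 to 5, against 106, 106, 94.6, 137 and 110.3 CPM in Sham 1 to 5 (log2 fold change -0.17, SE 0.14, edgeR adjusted p = 0.466). Unlike Cox6a1 and Cox8a, this ubiquitous isoform had a value below 0 (0.0229 on unscaled TPM), with HLI 1 and HLI 3 again the lowest in CPM. In TPM HLI 1 and Sham 3 were its lowest libraries, at 241 and 256, against 296 in HLI 3. The value of Cox7a2 was -0.10 without Sham 4 and -0.11 without HLI 1. Without HLI 1 and Sham 1 together Cox7a1 was at -0.49 and Cox7a2 at -0.12. Cox4i1, the main form of the largest nuclear subunit and the highest complex IV gene per length in HLI muscle, had 381, 510.2, 312, 466 and 455 CPM in HLI 1 to 5, against 456, 517, 394, 638 and 565 CPM in Sham 1 to 5 (log2 fold change -0.28, SE 0.17, edgeR adjusted p = 0.371). The value of Cox4i1 was -0.18 without HLI 3 and -0.28 without HLI 1 and Sham 1. Cox4i2 was far lower per length, at 9.90 ± 2.27 TPM in HLI and 6.66 ± 1.80 TPM in Sham muscle (SD, n = 5 each), while Cox4i1 averaged 1097 TPM in HLI and 1158 TPM in Sham muscle. It had 2.26, 4.27, 2.92, 5.15 and 4.24 CPM in HLI 1 to 5, against 3.63, 3.15, 1.93, 3.26 and 2.32 CPM in Sham 1 to 5, and HLI 2, HLI 4 and HLI 5 were above every Sham library. Its log2 fold change was 0.40 (SE 0.27, edgeR adjusted p = 0.400), 0.24 without HLI 4 and 0.63 without HLI 1 and Sham 1, which hold the lowest HLI and the highest Sham value. Smooth muscle and pericytes are known to express Cox4i2. Their 8 markers summed to 850 to 1487 CPM in HLI libraries, with HLI 1 the lowest, and to 1074 to 1188 CPM in Sham libraries. Of these sums Rgs5 alone gave 273 to 903 CPM in HLI and 388 to 629 CPM in Sham libraries. Of the fitted values 4 of 8 were below 0, with a median of -0.06. Myh11, Cnn1, Tagln and Acta2 lay between -0.53 and -0.19, and Rgs5, Pdgfrb, Notch3 and Cspg4 between 0.06 and 0.42. The part of these markers in the Cox4i2 values was not tested.

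**Figure D3:**
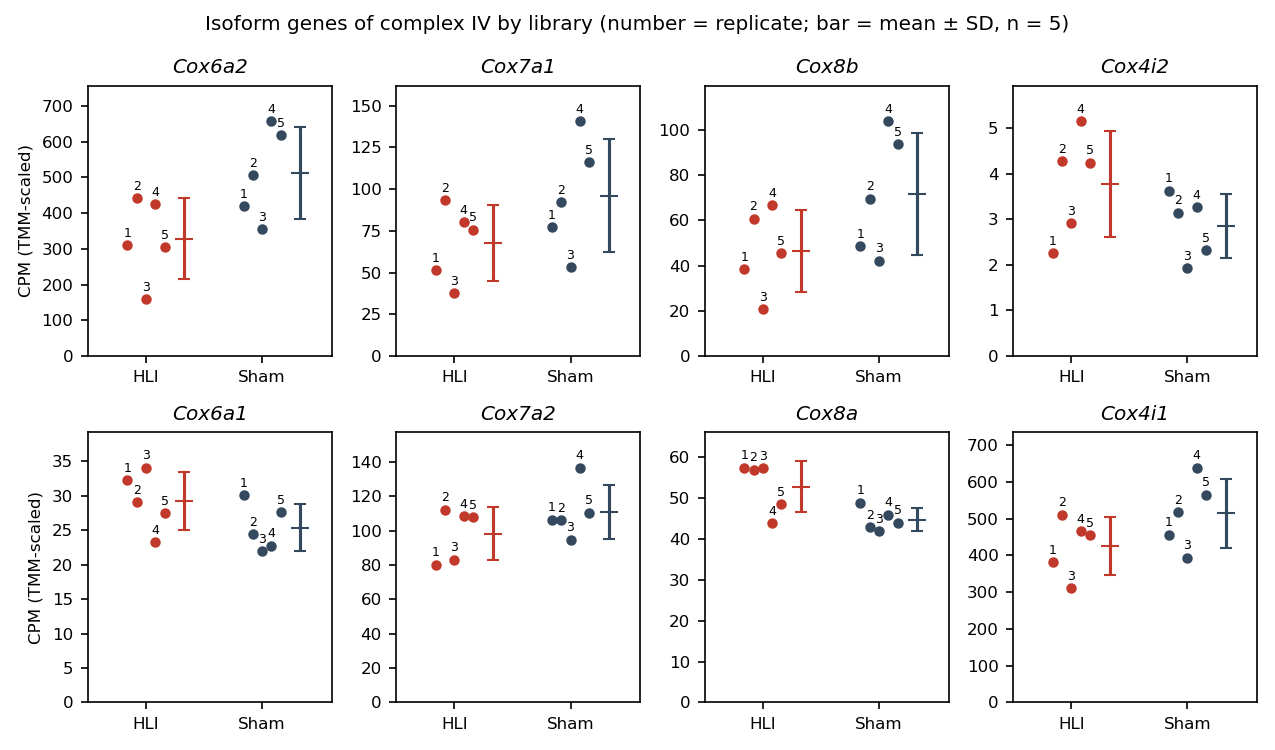
CPM of the muscle and ubiquitous isoforms of Cox6a, Cox7a and Cox8 and of Cox4i2 and Cox4i1 in each library, on a linear axis that starts at 0, with HLI left of Sham; each point is a library and the bar is the group mean with its SD (n = 5 each). Cox6a2 averages 328 CPM in HLI and 512 CPM in Sham muscle, Cox8a averages 52.8 CPM in HLI and 44.7 CPM in Sham muscle, and the groups overlap in every panel.

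The isoforms were also compared as ratios within each library. The log2 ratio of Cox6a2 to Cox6a1, on TPM + 1, was 3.0, 3.66, 1.97, 3.92 and 3.21 in HLI 1 to 5, against 3.54, 4.11, 3.75, 4.58 and 4.22 in Sham 1 to 5. Its mean was 3.15 ± 0.75 in HLI and 4.04 ± 0.41 in Sham muscle (SD, n = 5 each), an 8.89-fold and a 16.4-fold excess of the muscle isoform. The difference of -0.88 gave a two-sided exact permutation p of 0.0397, 0.0794 after Benjamini-Hochberg adjustment over the 4 ratios tested, so it did not pass 0.05. The smallest p these samples allow is 0.0079. HLI 1, HLI 3 and HLI 5 were below every Sham library.

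For Cox8b to Cox8a the log2 ratio was 0.03, 0.70, -0.84, 1.22 and 0.52 in HLI 1 to 5, against 0.60, 1.30, 0.62, 1.78 and 1.70 in Sham 1 to 5. The muscle isoform was 1.25-fold the ubiquitous one in HLI and 2.30-fold in Sham muscle, and in HLI 3 Cox8b was the lower of the pair. The difference of -0.88 had an exact permutation p of 0.0794, adjusted 0.106. For Cox7a1 to Cox7a2 the log2 ratio averaged 0.14 ± 0.33 in HLI and 0.46 ± 0.38 in Sham muscle (SD, n = 5 each), with a difference of -0.32 and an exact permutation p of 0.198, also after adjustment. The ratio of Cox4i2 to Cox4i1 went the other way, at -7.15, -6.74, -6.56, -6.35 and -6.59 in HLI 1 to 5, against -6.79, -7.14, -7.36, -7.39 and -7.64 in Sham 1 to 5. HLI 2 to 5 were above every Sham library, and HLI 1 lay within the Sham range. That difference of 0.59 had an exact permutation p of 0.0238, adjusted 0.0794.

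Without HLI 3 the 4 differences were -0.59 (Cox6a), -0.58 (Cox8), -0.19 (Cox7a) and 0.56 (Cox4i), and without HLI 1 and Sham 1 they were -0.97, -0.95, -0.36 and 0.82. None passed 0.05 after adjustment in either case. Without HLI 1 and Sham 1, 4 samples remain in each group, and the exact test has few assignments. An adjusted p could then fall under 0.05 only if several ratios reached the smallest possible p together, so nothing is concluded from that outcome. HLI 3 had the lowest ratio of muscle to ubiquitous isoform in all 3 muscle pairs, and HLI 1 the next lowest for Cox6a and Cox8. Those libraries also have the highest macrophage sums. The fast-fibre list had 14 of its 15 genes below 0 with a median of -0.50, and the macrophage list had 14 of 14 above 0 with a median of 0.85. In the list of slow fibres, which are rich in mitochondria, 8 of 9 genes were below 0 with a median of -0.44, and their sum was 1775, 2621.5, 993, 3207 and 2142 CPM in HLI 1 to 5, against 2188, 3393, 2806, 3622 and 3566 CPM in Sham 1 to 5, with HLI 3 and HLI 1 the lowest. In the list of new fibres, 3 of 3 genes were above 0 with a median of 2.38. Their sum was 13.8, 190.0, 1308, 289 and 232 CPM in HLI 1 to 5. In Sham 1 to 5 it was 271, 9.98, 13.1, 13.2 and 13.8 CPM. HLI 3 was the highest, while HLI 1 lay within the Sham range. The part of these markers in the ratios was not tested.

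**Figure D4:**
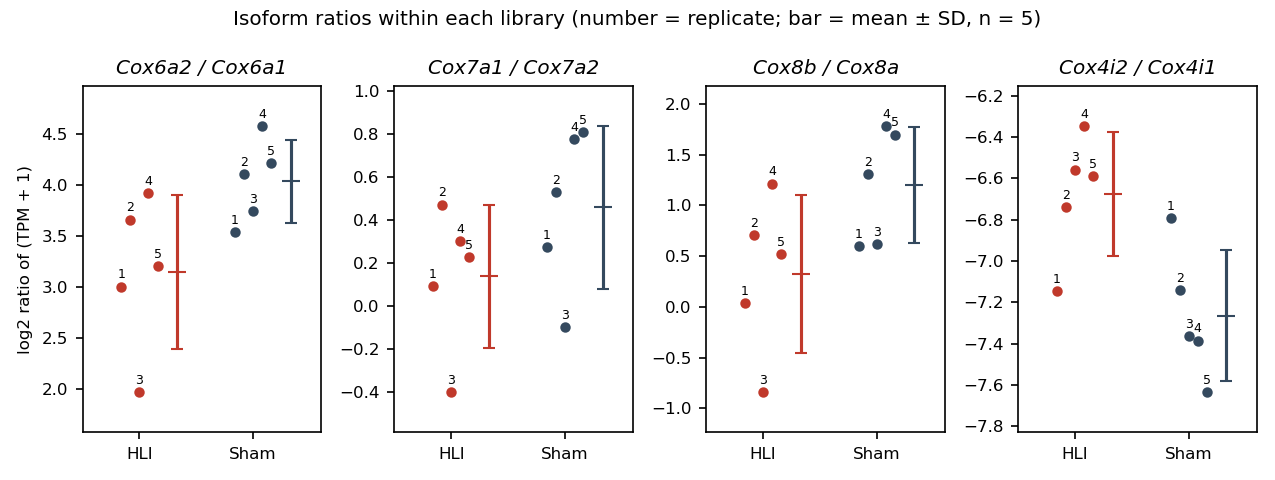
Log2 ratio of TPM + 1 of Cox6a2 to Cox6a1, Cox7a1 to Cox7a2, Cox8b to Cox8a and Cox4i2 to Cox4i1 in each library, HLI left of Sham, with a bar for each group mean ± SD (n = 5 each). The mean ratio of HLI is below that of Sham by 0.88, 0.32 and 0.88 in the first 3 panels and above it by 0.59 in the fourth, and in each panel the groups overlap.

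ATP synthase had 17 of 18 genes with a fitted log2 fold change below 0, with a median of -0.27 and a range from -0.59 to 0.38. On unscaled TPM 14 of the 18 were below 0 and the median was -0.08, against 0.19 over all genes. In the catalytic head, Atp5f1b, the beta subunit that forms ATP, was the highest member per length, at 2199 ± 162 TPM in HLI and 2321 ± 151 TPM in Sham muscle (SD, n = 5 each). In CPM it had 2059.7, 2329, 1597, 2729.5 and 2272 in HLI 1 to 5, against 2473, 2822, 2321, 2678 and 2876 in Sham 1 to 5. HLI 1, HLI 3 and HLI 5 were below every Sham library, and the log2 fold change was -0.26 (SE 0.16, edgeR adjusted p = 0.367), -0.17 without HLI 3 and -0.26 without HLI 1 and Sham 1. Its partner Atp5f1a, the alpha subunit, had a fitted log2 fold change of -0.28. The subunits of the central shaft that turns within the head were at -0.34 for Atp5f1c (gamma), -0.19 for Atp5f1d (delta) and -0.49 for Atp5f1e (epsilon), with adjusted p-values of 0.304, 0.414 and 0.316. The stalk that holds the head still, Atp5pb, Atp5pd, Atp5pf and Atp5po, ranged from -0.29 to -0.16.

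Atp5me, subunit e of the membrane part where 2 ATP synthases join into dimers, had the lowest value of the complex. It had 27.0, 32.1, 24.7, 40.5 and 35.2 CPM in HLI 1 to 5, against 43.8, 45.0, 27.6, 61.5 and 62.0 CPM in Sham 1 to 5. All HLI libraries lay below Sham 1, Sham 2, Sham 4 and Sham 5, and Sham 3 alone fell among the HLI values. The log2 fold change was -0.59 (SE 0.21, unadjusted p = 0.0173, edgeR adjusted p = 0.290), -0.51 without HLI 3 and -0.56 without HLI 1 and Sham 1. Its neighbours in the dimer, Atp5mf (subunit f) and Atp5mg (subunit g), were at -0.20 and -0.21, and the small subunits Atp5mj and Atp5mk were at -0.24 and -0.30.

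The gene above 0 was Atp5if1, which encodes the inhibitor that stops ATP synthase from running backwards and splitting ATP when the proton gradient falls. It had 16.8, 16.6, 22.2, 13.4 and 17.5 CPM in HLI 1 to 5, against 14.7, 12.2, 10.3, 13.4 and 16.04 CPM in Sham 1 to 5. HLI 1, HLI 2, HLI 3 and HLI 5 were above every Sham library, and HLI 4 lay within the Sham range. Its log2 fold change was 0.38 (SE 0.16, unadjusted p = 0.0328, edgeR adjusted p = 0.292), 0.27 without HLI 3 and 0.43 without HLI 1 and Sham 1. Per length it was the lowest gene of the complex, at 64.0 ± 20.4 TPM in HLI and 41.8 ± 6.75 TPM in Sham muscle (SD, n = 5 each).

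The genes Atp5mc1, Atp5mc2 and Atp5mc3 encode the same mature c subunit of the rotor ring with different targeting peptides. Atp5mc1 had 245, 331, 165, 315 and 311 CPM in HLI 1 to 5, against 347, 355, 276, 440.3 and 381 CPM in Sham 1 to 5 (log2 fold change -0.40, SE 0.19, edgeR adjusted p = 0.307). Atp5mc2 had 94.8, 123, 82.6, 128 and 109 CPM in HLI 1 to 5, against 127, 132, 97.1, 169 and 160.1 CPM in Sham 1 to 5 (log2 fold change -0.35, SE 0.17, edgeR adjusted p = 0.304). Atp5mc3 had the largest p of the complex: 284, 372, 269, 400.4 and 344 CPM in HLI 1 to 5, against 348, 354, 284, 435 and 394 CPM in Sham 1 to 5 (log2 fold change -0.12, SE 0.15, edgeR adjusted p = 0.646). In each of them HLI 3 was the lowest library and Sham 4 the highest in CPM. In TPM this held for Atp5mc1 only. Sham 3 was the lowest in TPM for Atp5mc2, at 237, against 265 in HLI 3. It was also the lowest for Atp5mc3, at 709, against 882 in HLI 3, and there HLI 2 was the highest, at 957, against 941 in Sham 4. Atp5mc3 was at -0.05 without HLI 3, -0.06 without Sham 4, -0.07 without HLI 1 and -0.21 without Sham 3 or HLI 4. Without HLI 1 and Sham 1, Atp5mc1 was at -0.37, Atp5mc2 at -0.34 and Atp5mc3 at -0.08.

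The median of ATP synthase was -0.17 without HLI 3 and -0.23 without HLI 1 and Sham 1. The median of complex IV was -0.18 without HLI 3, -0.16 without Sham 4 and -0.23 without HLI 1 and Sham 1.

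Genes that work with these complexes are given by their fitted log2 fold changes on counts. The mitochondrially encoded subunits of complexes III and IV and ATP synthase had 4 of 6 values below 0, a median of -0.17 and adjusted p-values of 0.399 to 0.987 by edgeR: mt-Co1 was at -0.24, mt-Co2 at -0.11, mt-Co3 at -0.28, mt-Atp8 at -0.41, mt-Atp6 at 0.04 and mt-Cytb at 0.01. Without HLI 1 and Sham 1 the median of these 6 was -0.19, and on unscaled TPM 3 of 6 were below 0 and the median was 0.01. All 13 mitochondrially encoded proteins together held 21.9 ± 2.52% of TPM in HLI and 21.5 ± 2.67% in Sham muscle (SD, n = 5 each). Of the nuclear subunits of complexes I and II, 41 of 41 tested were below 0, with a median of -0.285 (-0.29 without HLI 1 and Sham 1), and 35 were below 0 on unscaled TPM. That count leaves out the Ndufaf assembly factors, Ndufa4 and Ndufa4l2, a choice made after the values were seen; with them it was 50 of 51. No gene of these lists had an edgeR adjusted p under 0.05.

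Assembly factors of complex III had 5 of 6 values below 0 (median -0.23), those of complex IV 18 of 23 (median -0.17) and those of ATP synthase 5 of 5 (median -0.35). Without HLI 1 and Sham 1 the medians were -0.25, -0.19 and -0.37. On unscaled TPM the counts below 0 were 4 of 6, 10 of 23 and 4 of 5, and the medians -0.06, 0.02 and -0.08. Atpaf1 and Atpaf2, which put together the beta and alpha subunits of the head, were at -0.37 and -0.35, with unadjusted p-values of 0.0342 and 0.0163 and edgeR adjusted p-values of 0.292 and 0.290. In the complex IV list unadjusted p-values were also under 0.05 for Cox16 at -0.37, Cox10 at -0.35 and Coa7 at -0.36. Their edgeR adjusted p-values were 0.290, 0.293 and 0.293. Cox10 takes part in making the haem of the enzyme. Lonp1, the matrix protease known to turn over Cox4i1 at low oxygen, was at -0.33 (adjusted p = 0.290 by edgeR). Ndufa4, a subunit bound to complex IV, was at -0.31, and its hypoxia-linked relative Ndufa4l2 at -0.08.

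Among 14 regulators of respiratory genes 7 values were below 0 and 7 above, with a median of -0.04, also without HLI 1 and Sham 1. On unscaled TPM 5 were below 0 and the median was 0.12. Esrra, the oestrogen-related receptor that drives respiratory genes in muscle, averaged 35.5 ± 8.23 CPM in HLI and 48.9 ± 6.27 CPM in Sham muscle (SD, n = 5 each). Its log2 fold change was -0.46 (SE 0.16, unadjusted p = 0.0157, edgeR adjusted p = 0.290). Esrrb averaged 5.61 ± 1.94 CPM in HLI and 10.1 ± 2.65 CPM in Sham muscle (SD, n = 5 each). The fitted difference of Esrrb on the log2 scale was -0.85 (SE 0.28, edgeR adjusted p = 0.290). The coactivator Ppargc1a was at -0.22, Nrf1 at -0.14, the GABP subunit Gabpa at 0.27 and Tfam, the packaging factor of mitochondrial DNA, at 0.05, with adjusted p-values of 0.422 to 0.789.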

How the data were processed

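Groups and replicate numbers came from the sample labels. The authors deposited 1 table with estimated counts and TPM by gene and sample, per the file headers. The authors' estimated counts carry no normalization, and 90.6% of the nonzero ones are whole; the deposited TPM are levels per gene length. HISAT2 2.0, Bowtie 0.12.2 and the build mm8 are named per the submitters' processing notes, without roles; which program counted reads, with what annotation and whether by strand, is not given in the sources used here. Hence overlapping and near-identical genes cannot be told apart. The labels conflict on handling: the series' text names cells, and a reagent and company other than those of the sample protocol, which mentions adipose material.

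Counts were rounded and tested in R 4.3.3 with edgeR 4.0.16: TMM scaling, filterByExpr (count minimum 10, total minimum 15), quasi-likelihood test of HLI against Sham without covariates, Benjamini-Hochberg over 13404 genes, threshold 0.05. Alternatives used DESeq2 1.42.0, limma 3.58.1 on log2(TPM + 1) and log2(TPM + 0.1), no filter, a replicate block and each library left out. CPM use TMM-scaled totals. Cox6b2, with a summed count of 52, was too low to test. Cox4i2 was the next lowest member, with a summed count of 596, so its values and its ratio rest on few reads. Isoform ratios used an exact permutation test over samples. All 10 libraries were used, and no 2 were identical.

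The members and lists were chosen with earlier results of these data known. Values in every sample are given for each isoform of Cox4i, Cox6a, Cox6b, Cox7a, Cox7b and Cox8, for the 3 smallest and the largest p and the highest level per length of each complex, and for every member above 0 or called; Atp5mc1 was added after its values were seen, to complete the c-subunit genes. Promoters came from RefSeq's GRCm38.p6 table, matched by symbol or synonym, while the counts are from another build.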

Additional observations from a re-analysis of the deposited data

How the results depend on the processing

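Of the 43 members tested, 39 had a fitted value below 0, and 0 were called, in every alternative on counts and with each library left out. Unscaled TPM moved the median of all genes to 0.19 on log2(TPM + 1). Relative to that shift the same number, 39, lay below, but 31 lay below 0. The medians of complexes III, IV and ATP synthase were -0.04, -0.05 and -0.08 there. Atp5mc3, Cox7a2, Cox7a2l and Cox7b turned to 0.076, 0.0229, 0.0556 and 0.0105. On log2(TPM + 0.1) they were at 0.0761, 0.0230, 0.0558 and 0.0105. These settings also used limma in place of edgeR, and the cause of the changes was not tested. After median-of-ratios scaling of TPM, chosen after seeing the data, 39 were below 0 again. The count of all genes called was 0 with edgeR, 45 with DESeq2 and 54 (51 higher, 3 lower) without HLI 1 and Sham 1, the last chosen after seeing the data; the cause was not tested. With 1 library left out, the medians ranged from -0.34 to -0.14 (complex III), -0.36 to -0.16 (complex IV) and -0.36 to -0.17 (ATP synthase), and the ratio differences from -1.08 to -0.59 (Cox6a), -0.46 to -0.19 (Cox7a), -1.10 to -0.58 (Cox8) and 0.49 to 0.70 (Cox4i). Adjusted p-values of the ratios ran from 0.0556 to 0.373 over all alternatives. Equal replicate numbers did not pair the samples: the correlation of their deviations was between -0.0047 and 0.30, and no HLI sample correlated best with its own number. The replicate block called 0 genes, gave medians of -0.24, -0.25 and -0.28, and exact sign-flip p-values of 0.0625 (the smallest 5 pairs allow) for 3 ratios and 0.125 for Cox4i.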

Other observations

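The 3 genes of the c subunit took unequal shares of their summed TPM in the groups. Atp5mc3 held 43.3, 42.7, 50.2, 45.3 and 42.7% in HLI 1 to 5, against 40.2, 40.0, 41.1, 39.5 and 40.1% in Sham 1 to 5, so the groups did not overlap. Atp5mc1 averaged 41.1 ± 3.78% in HLI and 45.1 ± 0.68% in Sham muscle, and Atp5mc2 14.1 ± 0.66% in HLI and 14.7 ± 0.84% in Sham muscle (SD, n = 5 each). HLI 3 lay farthest from the Sham libraries for Atp5mc1 and Atp5mc3. This comparison was chosen after the values were seen and was not tested; with 3 shares that sum to the whole, it shows unequal differences and not which gene differed.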
